A study of Mus musculus with 6 samples.

Results

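The genes described here are 50 genes of the mitotic machinery, out of 47729 genes counted in the livers of mice in which Atoh8, a basic helix-loop-helix transcription factor, was knocked down. They were taken by symbol from the deposited FPKM table and linked by gene identifier to the count files, and all 50 were found. By role, 13 belong to the kinetochore and centromere, 3 to the chromosomal passenger complex, 10 are kinesin motors, 11 act in spindle assembly or at spindle poles, 7 are condensin subunits or other chromosome structure genes, and 6 are mitotic kinases, phosphatases or transcription regulators.

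The study compared 3 control libraries with 3 Atoh8 knockdown libraries, all from C57BL/6 mice that received a diet with 0.1% DDC (3,5-diethoxycarbonyl-1,4-dihydrocollidine, a compound that injures bile ducts and hepatocytes) for 17 days. The sample labels call the controls WT, whereas the design text uses the name shNC for them and shAtoh8 for the other group, so whether the controls carried a non-targeting hairpin is not settled by the labels. The vector and the promoter driving the hairpins are not given in the sources used here, and no liver without DDC was part of the comparison. The labels give hepatocyte as the cell type, while the protocol describes RNA from whole frozen livers. They do not say whether replicates came from separate animals, so the p-values reflect the spread among these libraries alone, and that spread may be technical.

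In mitosis, condensin compacts the chromosomes, kinetochores assemble on centromeric chromatin that contains the histone variant CENP-A, and the NDC80 complex links each kinetochore to microtubules of the spindle. Kinesins and spindle assembly factors build the spindle and move the chromosomes, and the chromosomal passenger complex corrects wrong attachments. Most of these genes are transcribed late in the cell cycle, through the DREAM and MuvB complexes and FOXM1, and are low in the resting adult liver, in which few hepatocytes divide.

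Reads assigned to genes ranged from 31912058 to 37969644 per library, and 3 reads corresponded to 0.0699 to 0.0994 CPM, the read count scaled to a common library size. Atoh8 was at 63.8, 16.8 and 16.4 CPM in the controls (replicates 1, 2 and 3, in this order throughout) and at 10.2, 9.83 and 5.64 CPM in the knockdown libraries. Each knockdown library was below each control, and control replicate 1 was far above the other controls. The log2 fold change of -1.92 (SE 0.58) did not pass the test with all 6 libraries (adjusted p = 0.197). Without control replicate 1, it was -0.95 and Atoh8 was called lower (adjusted p = 0.0115). Control replicate 1 stood apart over all genes, with correlations of log2 CPM of 0.916 and 0.907 with the other controls, against 0.984 between those and 0.980 to 0.985 among the knockdown libraries. Its correlations with knockdown replicates 1, 2 and 3 were higher than those with the other controls, at 0.939, 0.947 and 0.922.

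Mitotic genes were higher in the livers with Atoh8 knockdown. Of the 50 genes, 20 were called higher (edgeR quasi-likelihood test, Benjamini-Hochberg adjusted p under 0.05 over 13767 genes), against 0.741% of all genes tested, and none was called lower, against 0.123%. The called genes were Nuf2 and Cenpa of the kinetochore and centromere, the passenger subunit Birc5, the kinesins Kif2c, Kif4, Kif18b, Kif20a, Kif22 and Kifc1, the spindle genes Aurka, Tpx2, Dlgap5, Knstrn, Ckap2, Spag5 and Nek2, the condensin subunit Ncapd2, and the regulators Foxm1, Cdc25c and Cdca3. The median log2 fold change over the 50 genes was 3.35, compared with -0.05 over all genes tested. The fold change was above 0 for 49 of the 50 genes. In 46 genes every knockdown library was above every control, a separation found in 13.0% of all genes tested. The 4 genes with overlapping groups were Spc24, Cenpk, Smc2 and Smc4. The members were chosen with earlier results of these data known. Those near 0 in the controls passed the filter on low counts through the knockdown libraries. The shares of members set beside those of all genes are therefore a description and not a test of the set. Since the libraries come from bulk tissue, more cells expressing a gene and more RNA per cell cannot be told apart.

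The 50 genes summed to 45.3, 61.5 and 84.8 CPM in the controls and to 330.2, 229.9 and 392 CPM in the knockdown libraries. The lowest knockdown library thus held more mitotic RNA than the highest control. The median gene was at 0.149, 0.387 and 0.698 CPM in the controls and at 5.30, 3.42 and 5.95 CPM in the knockdown libraries. In the plot of CPM by library, most genes form 2 separate clouds of points, with the controls spread over a wider range on the log scale than the knockdown libraries.

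**Figure D1:**
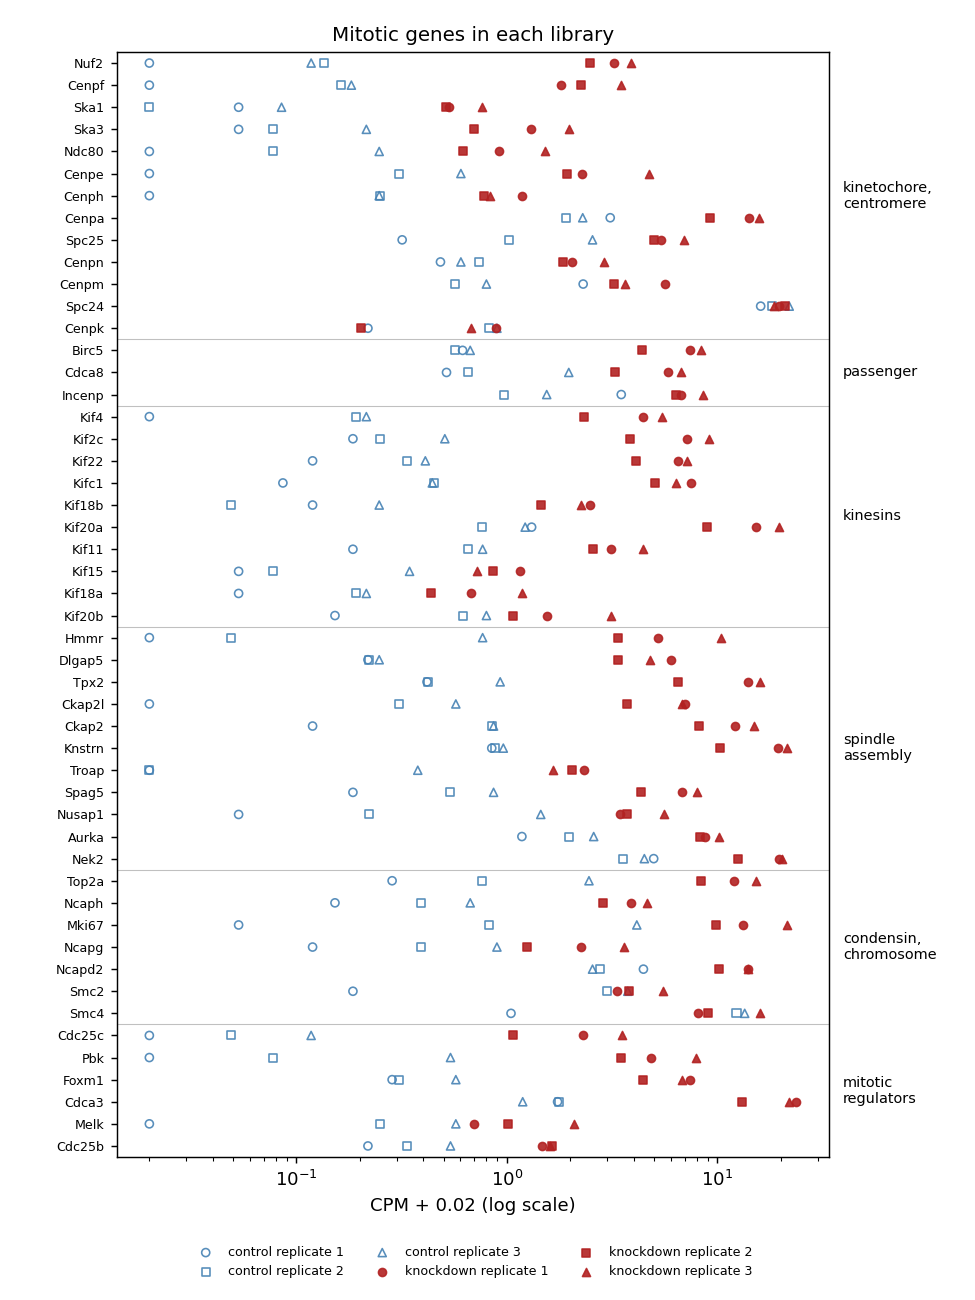
CPM of each of the 50 mitotic genes (rows, grouped by role) in each library, on a log axis after adding 0.02 CPM so that values of 0 can be drawn. Open blue symbols are the 3 controls and filled red symbols the 3 knockdown libraries, with 1 symbol shape per replicate. The groups do not overlap in 46 genes, and overlap in Spc24, Cenpk, Smc2 and Smc4.

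The number of calls rested on the choice of libraries. Without control replicate 1, 44 of the 50 genes were called higher and none lower, while 16.5% of all genes tested were called higher and 16.1% lower. The median log2 fold change of the mitotic genes was then 2.87, and all 20 genes called with 6 libraries were among the 44. Cenpk, Kif20b, Melk, Smc2, Smc4 and Spc24 were not called. Leaving out control replicate 2, knockdown replicate 1 or knockdown replicate 3 left 0 of the 50 genes called by the edgeR test, with 0.0% of all genes tested called in either direction. At an unadjusted p under 0.05, 42, 44 and 41 of them were higher in these 3 fits, against 7.12%, 6.16% and 6.52% of all genes tested. Without control replicate 3, 6 genes were called higher, against 0.141% of all genes tested, and none lower, against 0.00707%. Without knockdown replicate 2, 5 genes were called, against 0.0707%.

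Other settings moved the count as well, always with 0 members lower. It was 42 with DESeq2 (3.73% of all genes higher) and 45 with limma-voom with quality weights (18.7%). With another scaling (median ratio size factors) it was 20 (0.726%), with no filter on low counts 27 (0.928%) and with the bias-adjusted form of the edgeR test 27 (1.29%). Of 42 members that passed a filter of 1 CPM in 3 libraries, 22 were called (0.967%). Of 38 members with at least 0.5 FPKM in 3 libraries, 20 were called by limma on log2(FPKM + 1) (0.871%) and 16 on log2(FPKM + 0.1) (0.554%). Of the 20 genes called with counts, Cdc25c, Kif18b, Kif4 and Ncapd2 were not among the calls on log2(FPKM + 1), and Aurka, Dlgap5, Kif18b, Kif4 and Ncapd2 were not among those on log2(FPKM + 0.1).

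**Figure D2:**
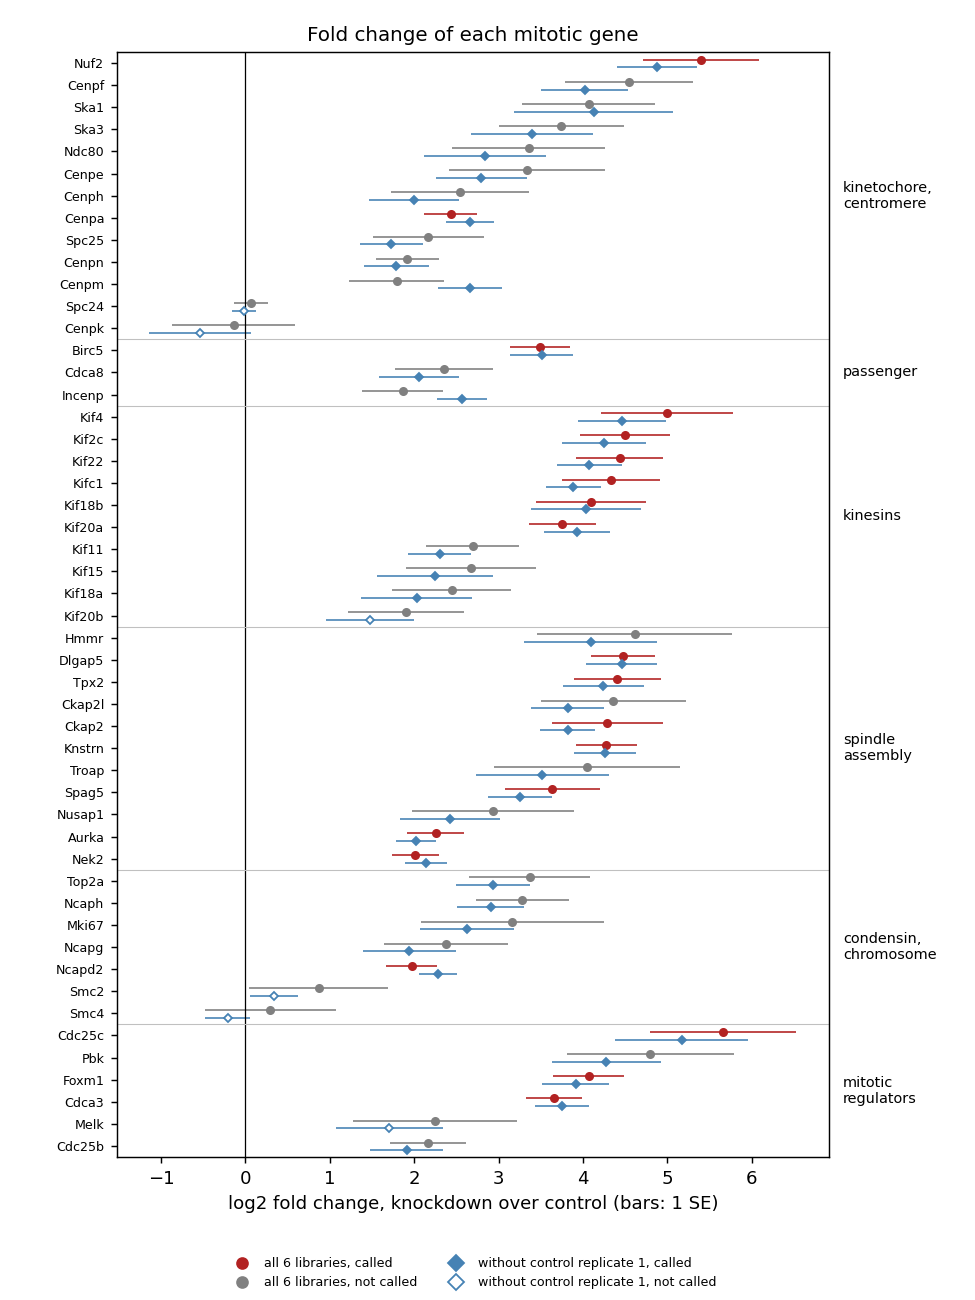
Log2 fold change of each mitotic gene, knockdown over control, with bars of 1 SE. Circles are the fit to all 6 libraries (red where called, grey where not) and diamonds the fit without control replicate 1 (filled where called, open where not). The points lie to the right of 0 in both fits except for Spc24, Cenpk and Smc4.

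The promoters of the 50 genes are shown with the sequence elements known from late cell cycle genes, the class to which most of them belong. The motif shares therefore describe how the list was chosen and are not a result of the knockdown comparison. These are the cell cycle genes homology region (CHR, letters TTTGAA, with the variant TTCGAA), which MuvB complexes bind, and the CCAAT box (letters CCAAT), which NF-Y binds. RefSeq promoters (GRCm38.p6, from 250 bases before to 50 bases after the start) matched 40 of the 50 genes by symbol, and both strands were searched. TTTGAA was present in the promoters of 26 of the 40 genes (65.0%), compared with 17.9% of all 32851 promoters of the same length. CCAAT was present in 28 of the 40 (70.0%), compared with 37.4%, and both motifs were present in 21 (52.5%), compared with 6.95%. The variant TTCGAA was found in 3 of the 40 genes and in 1.56% of all promoters. These shares count genes among the members and promoters in the table, and the motifs shared bases in 1 member promoter. A motif match is a description of letters and not a bound site.

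The CHR letters lay close to the start. TTTGAA began within 50 bases of the start in 22 of the 40 genes (55.0%) and in 4.94% of all promoters. That window was chosen after the positions had been seen. The 100 bases before the start are printed for the 8 genes in which the CHR letters fall within 50 bases before it. Capitals mark TTTGAA and CCAAT, which read TTCAAA and ATTGG where the match is on the other strand.
Cenpn (chr8:116921640-116921739, + strand): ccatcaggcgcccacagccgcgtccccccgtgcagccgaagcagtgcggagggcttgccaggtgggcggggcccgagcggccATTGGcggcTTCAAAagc
Ckap2l (chr2:129297213-129297312, - strand): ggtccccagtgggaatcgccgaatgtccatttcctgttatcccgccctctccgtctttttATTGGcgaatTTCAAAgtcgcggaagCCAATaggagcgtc
Kif11 (chr19:37376282-37376381, + strand): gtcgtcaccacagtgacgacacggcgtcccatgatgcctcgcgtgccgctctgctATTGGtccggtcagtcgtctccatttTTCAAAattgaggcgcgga
Kif15 (chr9:122950981-122951080, + strand): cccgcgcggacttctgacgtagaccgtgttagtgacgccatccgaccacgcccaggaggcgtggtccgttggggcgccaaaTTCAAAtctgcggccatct
Kif22 (chr7:127042421-127042520, - strand): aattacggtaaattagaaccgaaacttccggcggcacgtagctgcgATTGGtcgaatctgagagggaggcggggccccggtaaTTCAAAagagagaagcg
Ncapg (chr5:45669825-45669924, + strand): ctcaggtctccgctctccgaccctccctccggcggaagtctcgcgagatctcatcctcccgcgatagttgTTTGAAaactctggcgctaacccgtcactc
Ska3 (chr14:57826164-57826263, - strand): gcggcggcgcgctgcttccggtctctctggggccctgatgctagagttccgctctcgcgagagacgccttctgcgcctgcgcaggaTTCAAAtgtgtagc
Top2a (chr11:99024190-99024289, - strand): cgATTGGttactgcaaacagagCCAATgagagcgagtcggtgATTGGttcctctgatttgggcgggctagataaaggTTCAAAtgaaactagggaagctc

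Of these 8 genes, Kif22 was called higher with all 6 libraries, against 20 of the 50 members and 0.741% of all genes tested. All 8 were called without control replicate 1, as were 44 of the 50 members and 16.5% of all genes tested. Promoters with none of the motifs belonged to 7 of the 40 genes (17.5%), compared with 50.9% of all promoters. These were Birc5, Kif18a, Knstrn, Melk, Ncaph, Nuf2 and Nusap1. Birc5, Knstrn and Nuf2 were called higher, so their 100 bases before the start are printed to show called genes without these letters in the window.
Birc5 (chr11:117849137-117849236, + strand): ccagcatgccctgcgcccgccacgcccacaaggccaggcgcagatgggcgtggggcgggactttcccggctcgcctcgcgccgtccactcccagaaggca
Knstrn (chr2:118813903-118814002, + strand): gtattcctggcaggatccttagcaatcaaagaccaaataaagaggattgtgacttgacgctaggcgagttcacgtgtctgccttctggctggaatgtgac
Nuf2 (chr1:169531465-169531564, - strand): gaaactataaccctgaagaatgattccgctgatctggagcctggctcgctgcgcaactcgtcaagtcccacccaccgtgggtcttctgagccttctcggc

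Among the 15 called genes with a promoter in the table, 11 held TTTGAA, 11 held CCAAT, 10 held both and 3 held neither. Among all 40 members with a promoter, called or not, these counts were 26, 28, 21 and 7. Smc2 and Kif20b, which were called neither with all 6 libraries nor without control replicate 1, also held TTTGAA, and Spc24 was not in the table.

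**Figure D3:**
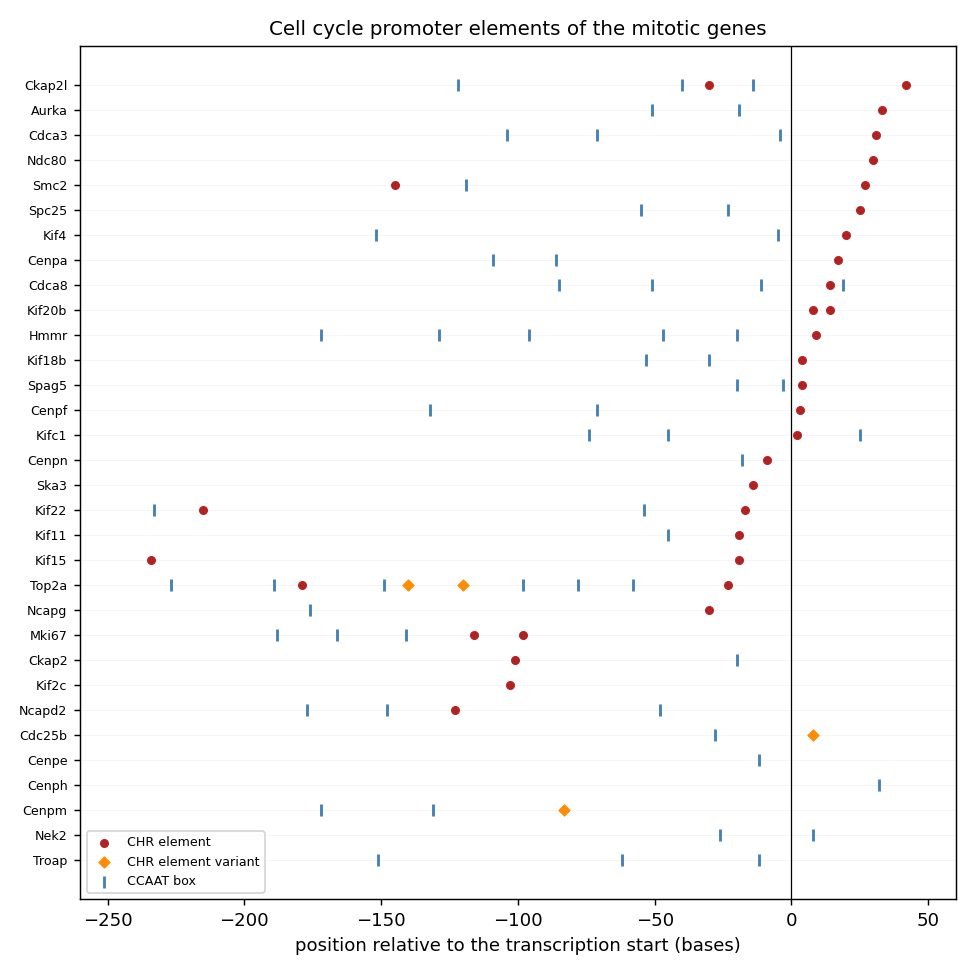
Positions of the CHR element TTTGAA (red circles), its variant TTCGAA (orange diamonds) and the CCAAT box (blue ticks) relative to the transcription start, in bases, for the member promoters that hold at least 1 of them. Rows are genes, and Cenpk, which has more than 1 promoter in the table, and the 7 genes without a motif are left out. The red circles cluster within 50 bases of the start.

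Of the 13 kinetochore and centromere genes, 2 were called higher with all 6 libraries, against 0.741% of all genes tested. When control replicate 1 was left out, 11 were called, against 16.5%. The median log2 fold change was 2.54. The groups were apart in all but Spc24 and Cenpk, against 13.0% of all genes tested. Nuf2, a subunit of the microtubule-binding NDC80 complex (ENSMUSG00000026683, chr1:169497934-169531464, GRCm38), was at 0, 0.115 and 0.0975 CPM in the controls and at 3.20, 2.46 and 3.89 CPM in the knockdown libraries. All controls were at or near the level of 3 reads, and the knockdown libraries lay well above them. Its log2 fold change was 5.40 (SE 0.69, adjusted p = 0.0294). With 7 control reads and 393 knockdown reads, the ratio per effective library size was 44.0 (exact 95% interval 21.1 to 110.1, for counting error only). Cenpa, the centromeric histone H3 variant, was at 3.08, 1.89 and 2.27 CPM in the controls and at 14.1, 9.17 and 15.8 CPM in the knockdown libraries. The groups were apart, and control replicate 1 was the highest control here. The log2 fold change of Cenpa was 2.43 (SE 0.32, adjusted p = 0.0300).

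The 4 subunits of the NDC80 complex did not share a pattern. Spc24 was at 16.1, 18.3 and 21.96 CPM in the controls and at 19.7, 20.9 and 18.6 CPM in the knockdown libraries. Its groups overlapped fully, with a log2 fold change of 0.07 (SE 0.20, adjusted p = 0.903). Spc25, its partner at the kinetochore end of the complex, was at 0.298, 1.00 and 2.53 CPM in the controls and at 5.41, 4.97 and 6.90 CPM in the knockdown libraries. The groups were apart, yet the controls spread widely, and Spc25 was not called with all 6 libraries (log2 fold change 2.17, adjusted p = 0.197) but was called without control replicate 1 (1.73, adjusted p = 0.0067). Ndc80, the other microtubule-binding subunit, was at 0, 0.0573 and 0.227 CPM in the controls and at 0.897, 0.601 and 1.49 CPM in the knockdown libraries. It too was not called with all 6 libraries (log2 fold change 3.36, adjusted p = 0.158) and was called without control replicate 1 (2.84, adjusted p = 0.0142).

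Per transcript length, the level of Spc24 differed from those of its partners in both groups. Spc24 was at 11.4, 13.1 and 15.3 FPKM in the controls and at 15.04, 15.3 and 14.4 FPKM in the knockdown libraries. Nuf2 did not exceed 0.243 FPKM in any control and was at 1.81, 1.53 and 1.98 FPKM in the knockdown libraries. Ndc80 did not exceed 0.0923 FPKM in any control and reached 0.672 FPKM in knockdown replicate 3. Spc25 lay between, at 0.330, 0.857 and 2.23 FPKM in the controls and 4.40, 4.001 and 5.71 FPKM in the knockdown libraries. In every library, Spc24 was the highest of the 4 subunits.

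Of the remaining 9 kinetochore and centromere genes, 8 had groups that did not overlap, against 13.0% of all genes tested. Cenpf, a kinetochore protein of the outer corona, was at 0, 0.143 and 0.162 CPM in the controls and at 1.79, 2.22 and 3.45 CPM in the knockdown libraries. Its log2 fold change of 4.54 (SE 0.76) fell just short of the threshold (adjusted p = 0.0502). Ska1, a microtubule-binding subunit of the SKA complex, had 3 control reads and 72 knockdown reads. Their ratio per effective library size was 18.8 (exact 95% interval 6.18 to 93.3, for counting error only). Ska1 was not called with all 6 libraries (log2 fold change 4.07, SE 0.79, adjusted p = 0.0740) and was called without control replicate 1 (adjusted p = 0.0086). Cenpe (a kinetochore kinesin), Cenph, Cenpm and Cenpn (subunits of the inner kinetochore network) and Ska3 (of the SKA complex) had log2 fold changes between 1.79 for Cenpm and 3.75 for Ska3. None of these 5 was called with 6 libraries, at adjusted p from 0.074 for Cenpn to 0.219 for Cenph, and all 5 were called without control replicate 1.

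Cenpk, a further inner kinetochore subunit, was the 1 mitotic gene with a fold change below 0. It was at 0.199, 0.803 and 0.877 CPM in the controls and at 0.873, 0.183 and 0.653 CPM in the knockdown libraries. The lowest value was in knockdown replicate 2 and the groups overlapped. The log2 fold change was -0.14 (SE 0.73, adjusted p = 0.954).

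Birc5 led the 3 chromosomal passenger genes. Birc5 (survivin, ENSMUSG00000017716, chr11:117849251-117855743, GRCm38), which targets the complex to centromeres, was at 0.596, 0.545 and 0.650 CPM in the controls and at 7.42, 4.39 and 8.39 CPM in the knockdown libraries. The controls were nearly equal and far below the knockdown libraries. The log2 fold change was 3.49 (SE 0.35, adjusted p = 0.0182). Cdca8 (borealin), its partner in the complex, was at 0.497, 0.631 and 1.95 CPM in the controls and at 5.79, 3.24 and 6.69 CPM in the knockdown libraries (log2 fold change 2.35, SE 0.58, adjusted p = 0.135). Incenp, the scaffold that binds the kinase of the complex, was at 3.48, 0.946 and 1.53 CPM in the controls and at 6.69, 6.38 and 8.55 CPM in the knockdown libraries (log2 fold change 1.86, SE 0.48, adjusted p = 0.146). Both had groups apart (13.0% of all genes tested) and were called without control replicate 1 (16.5%). Cdca8 overlaps the gene 9930104L06Rik on the opposite strand. The sources used here do not give the strand setting of the counting, and reads from the overlap cannot be assigned to either gene.

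Among the 10 mitotic kinesins, 6 were called higher, against 0.741% of all genes tested. All 10 had groups that did not overlap, against 13.0%. Their median log2 fold change was 3.93. Kif20a (MKLP2), a motor of the central spindle, was at 1.29, 0.745 and 1.20 CPM in the controls and at 15.2, 8.91 and 19.7 CPM in the knockdown libraries. The controls were close to one another, and knockdown replicate 2 was the lowest of its group. Its log2 fold change was 3.76 (SE 0.40, adjusted p = 0.0196). Kif22, a chromosome arm motor whose promoter with CHR letters is printed above, was at 0.0994, 0.315 and 0.390 CPM in the controls and at 6.47, 4.08 and 7.13 CPM in the knockdown libraries. The groups were far apart, with a log2 fold change of 4.43 (SE 0.51, adjusted p = 0.0239).

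Kif2c (MCAK), a microtubule depolymerase at centromeres, was at 0.166, 0.229 and 0.487 CPM in the controls and at 7.20, 3.82 and 9.07 CPM in the knockdown libraries. Every control was low and knockdown replicate 2 was again the lowest of its group (log2 fold change 4.50, SE 0.54, adjusted p = 0.0244). Kif4, a chromokinesin, was at 0, 0.172 and 0.195 CPM in the controls and at 4.44, 2.30 and 5.43 CPM in the knockdown libraries. Control replicate 1 held no read of it, and the groups were apart (log2 fold change 4.99, SE 0.79, adjusted p = 0.0412). Kif18b, a motor at microtubule plus ends, was at 0.0994, 0.0287 and 0.227 CPM in the controls and at 2.47, 1.44 and 2.24 CPM in the knockdown libraries. The controls rested on few reads, and the groups were apart (log2 fold change 4.10, SE 0.65, adjusted p = 0.0429).

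Kifc1, a minus-end motor that focuses spindle poles, was at 0.0662, 0.430 and 0.422 CPM in the controls and at 7.47, 5.04 and 6.34 CPM in the knockdown libraries. The groups were apart (log2 fold change 4.33, SE 0.58, adjusted p = 0.0316). Kifc1 is uncertain, since its transcript shares 96.8% identity over 2312 bases with Kifc5b, a close copy. Kifc5b, named for this reason after its values were seen, was at 0.563, 0.229 and 0.357 CPM in the controls and at 2.98, 1.93 and 2.63 CPM in the knockdown libraries (log2 fold change 2.71, adjusted p = 0.0458). Both copies were thus higher in every knockdown library. Kif20a shares 979 transcript bases with Cdc23, and Kif4 shares 684 with Pdzd11, in each case on the opposite strand.

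The other 4 kinesins were not called with all libraries. Kif11 (Eg5), the motor that pushes spindle poles apart, was at 0.166, 0.631 and 0.747 CPM in the controls and at 3.10, 2.56 and 4.43 CPM in the knockdown libraries (log2 fold change 2.70, SE 0.55, adjusted p = 0.0824). Kif15, Kif18a and Kif20b had log2 fold changes of 2.67, 2.45 and 1.90 and adjusted p of 0.181, 0.179 and 0.266. All 4 had groups apart, and Kif20b alone among the 10 kinesins was not called without control replicate 1 (adjusted p = 0.0521).

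Spindle assembly and spindle pole genes had the highest median among the 6 roles, a log2 fold change of 4.28. Of the 11 genes, 7 were called, against 0.741% of all genes tested, and all 11 were apart between the groups, against 13.0%. Knstrn (kinastrin, ENSMUSG00000027331, chr2:118814003-118853957, GRCm38), which joins spindle microtubules and kinetochores, was at 0.828, 0.860 and 0.942 CPM in the controls and at 19.5, 10.3 and 21.4 CPM in the knockdown libraries. The controls hardly differed from one another, and all knockdown libraries were far above them. Its log2 fold change of 4.28 (SE 0.36) had the smallest adjusted p of the 50 genes, 0.00985. Dlgap5 (HURP), which stabilises spindle microtubules near chromosomes, was at 0.199, 0.201 and 0.227 CPM in the controls and at 6.01, 3.37 and 4.75 CPM in the knockdown libraries. The controls again lay close together, with a log2 fold change of 4.47 (SE 0.38, adjusted p = 0.0101).

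Aurka, the kinase of spindle poles, was at 1.16, 1.95 and 2.57 CPM in the controls and at 8.73, 8.28 and 10.2 CPM in the knockdown libraries. The groups were apart (log2 fold change 2.26, SE 0.34, adjusted p = 0.0384). Tpx2, which activates Aurka and nucleates microtubules, was at 0.397, 0.401 and 0.910 CPM in the controls and at 13.9, 6.48 and 15.9 CPM in the knockdown libraries. Control replicate 3 was the highest control and knockdown replicate 2 the lowest of its group (log2 fold change 4.41, SE 0.51, adjusted p = 0.0239). Nek2, a kinase that separates centrosomes, was at 4.97, 3.55 and 4.48 CPM in the controls and at 19.7, 12.5 and 20.3 CPM in the knockdown libraries. Its controls did not overlap the knockdown libraries (log2 fold change 2.01, SE 0.28, adjusted p = 0.0324).

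Ckap2, a microtubule-stabilising protein, was at 0.0994, 0.831 and 0.845 CPM in the controls and at 12.1, 8.18 and 14.9 CPM in the knockdown libraries. Control replicate 1 was well below the other controls, and the groups were apart (log2 fold change 4.29, SE 0.66, adjusted p = 0.0394). Spag5 (astrin), the partner of Knstrn at kinetochores, was at 0.166, 0.516 and 0.845 CPM in the controls and at 6.81, 4.34 and 7.97 CPM in the knockdown libraries. The groups were apart here too (log2 fold change 3.64, SE 0.56, adjusted p = 0.0402).

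The 4 spindle genes not called with 6 libraries had wide controls. Hmmr, a spindle pole protein that binds hyaluronan, was at 0, 0.0287 and 0.747 CPM in the controls and at 5.19, 3.37 and 10.4 CPM in the knockdown libraries (log2 fold change 4.61, SE 1.16, adjusted p = 0.140). Ckap2l, Nusap1 (a microtubule bundling protein) and Troap had log2 fold changes of 4.36, 2.94 and 4.05 and adjusted p of 0.0744, 0.225 and 0.160. All 4 were called without control replicate 1.

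The condensin and chromosome structure genes split between 5 genes with separate groups, against 13.0% of all genes tested, and the SMC pair. Condensin I consists of the ATPases Smc2 and Smc4, which it shares with condensin II, and of Ncaph, Ncapg and Ncapd2. Ncapd2 (ENSMUSG00000038252, chr6:125168007-125191701, GRCm38) was at 4.44, 2.75 and 2.53 CPM in the controls and at 14.0, 10.2 and 13.9 CPM in the knockdown libraries. The groups were apart, with control replicate 1 the highest control. Ncapd2 was the 1 called gene of the 7, against 0.741% of all genes tested (log2 fold change 1.97, SE 0.30, adjusted p = 0.0394). Ncaph, the subunit that bridges the SMC heads, was at 0.132, 0.373 and 0.650 CPM in the controls and at 3.85, 2.85 and 4.64 CPM in the knockdown libraries. Its groups were apart as well, with a log2 fold change of 3.28 (SE 0.55) just short of the threshold (adjusted p = 0.0502). Ncapg had a log2 fold change of 2.38 (SE 0.74, adjusted p = 0.206), and it overlaps Lcorl on the opposite strand.

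Smc2 was at 0.166, 2.98 and 3.74 CPM in the controls and at 3.32, 3.79 and 5.48 CPM in the knockdown libraries. Control replicate 1 was far below all other libraries, whose ranges overlapped (log2 fold change 0.87, SE 0.83, adjusted p = 0.690). The fold change of Smc2 was above 0 in every fit that tested it (log2 0.34 to 1.40). Smc2 was called higher without control replicate 1 when an offset for GC content and transcript length, described below, was added. Smc4 was at 1.03, 12.3 and 13.5 CPM in the controls and at 8.10, 8.99 and 15.9 CPM in the knockdown libraries. Again only control replicate 1 was low, and the log2 fold change of 0.30 (SE 0.78, adjusted p = 0.895) became -0.21 without it (adjusted p = 0.591). Per length, in control replicates 2 and 3, Smc4 was at 3.07 and 3.50 FPKM while Ncapg was at 0.154 and 0.281 FPKM and Ncaph at 0.161 and 0.298 FPKM. In the knockdown libraries, Smc4 was at 2.51, 2.68 and 3.83 FPKM and Ncaph at 1.49, 1.03 and 1.77 FPKM. Smc4 thus lay above Ncaph in all 5 of these libraries. Ncapd2 was at 0.955 and 0.689 FPKM in control replicates 2 and 3, below Smc4. In the knockdown libraries Ncapd2 was at 3.30, 3.10 and 5.91 FPKM, above Smc4 in each. In control replicate 1, Smc4 was at 0.381 FPKM, Ncaph at 0.0969 FPKM and Ncapd2 at 2.01 FPKM.

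Top2a, the topoisomerase that untangles chromosomes, was at 0.265, 0.745 and 2.44 CPM in the controls and at 12.05, 8.39 and 15.2 CPM in the knockdown libraries (log2 fold change 3.37, SE 0.72, adjusted p = 0.0896). Mki67, which coats mitotic chromosomes and is the antigen of the Ki-67 proliferation stain, was at 0.0331, 0.803 and 4.13 CPM in the controls and at 13.2, 9.80 and 21.4 CPM in the knockdown libraries (log2 fold change 3.16, SE 1.08, adjusted p = 0.243). The knockdown libraries exceeded every control for both genes, although control replicate 3 lay closest to them and control replicate 1 farthest. Both were called without control replicate 1.

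Of the 6 regulators, Cdca3, Foxm1 and Cdc25c were called higher, against 0.741% of all genes tested. The groups were apart for all 6, against 13.0%. Cdca3 (ENSMUSG00000023505, chr6:124829547-124833701, GRCm38), a trigger of mitotic entry, was at 1.72, 1.75 and 1.17 CPM in the controls and at 23.8, 13.04 and 21.98 CPM in the knockdown libraries. Its controls were close together and far below (log2 fold change 3.66, SE 0.34, adjusted p = 0.0123). Foxm1, the transcription factor that drives late cell cycle genes, was at 0.265, 0.287 and 0.552 CPM in the controls and at 7.42, 4.42 and 6.81 CPM in the knockdown libraries. Every knockdown library was well above every control (log2 fold change 4.07, SE 0.42, adjusted p = 0.0187).

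Cdc25c, a phosphatase that activates the mitotic cyclin-dependent kinase, was at 0, 0.0287 and 0.0975 CPM in the controls and at 2.28, 1.05 and 3.52 CPM in the knockdown libraries. Every control was at or near 0 and the groups were apart. With 4 control reads and 285 knockdown reads, the ratio per effective library size was 55.8 (exact 95% interval 21.6 to 206.2, for counting error only). The log2 fold change was 5.66 (SE 0.87, adjusted p = 0.0394). Cdc25b, a related phosphatase, was at 0.199, 0.315 and 0.520 CPM in the controls and at 1.45, 1.62 and 1.58 CPM in the knockdown libraries (log2 fold change 2.16, SE 0.45, adjusted p = 0.0857). The kinases Pbk and Melk had log2 fold changes of 4.80 (adjusted p = 0.0841) and 2.25 (adjusted p = 0.35). Cdc25b and Pbk were called without control replicate 1, and Melk was not (adjusted p = 0.0637).

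Compared per length, the most abundant mitotic RNAs changed between the groups. In the controls, Spc24 had the highest mean FPKM of the 50 genes (13.3), followed by Smc4 (2.32) and Cenpa (2.095). In the knockdown libraries Cdca3, Knstrn, Spc24 and Cenpa came first. Cdca3 went from 1.26, 1.54 and 0.837 FPKM in the controls to 21.1, 10.9 and 19.9 FPKM in the knockdown libraries. Knstrn went from 1.04, 0.839 and 1.21 FPKM to 19.2, 9.42 and 17.8 FPKM. The knockdown ranges of Cdca3, Knstrn, Spc24 and Cenpa overlapped, so their order is not resolved.

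The libraries of each group fell in a similar order across the mitotic genes. Knockdown replicate 2 was the lowest knockdown library for 41 of the 50 genes, and knockdown replicate 3 the highest for 36. Among the controls, replicate 1 was the lowest for 39 genes and replicate 3 the highest for 39. Of the 50 genes, 12 had no read in control replicate 1, 2 had none in control replicate 2, and every gene had reads in the other 4 libraries. Without the 4 genes whose groups overlapped, a choice made after their values were seen, the sums were 27.9, 27.1 and 44.8 CPM in the controls and 298.2, 196.1 and 352 CPM in the knockdown libraries. Control replicates 1 and 2 were then nearly equal.

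From gene to gene, the difference of control replicate 1 from the other controls varied with base composition. Relative to the mean of control replicates 2 and 3, the median mitotic gene was -1.44 in log2 CPM in control replicate 1, compared with 0.10 over all genes tested, and 40 of the 50 genes were lower there. Across the 50 genes, which share the same libraries, this difference had a Spearman correlation of 0.633 with the GC content of the longest transcript, and across 13729 genes one of 0.644. Mitotic genes had a median GC content of 46.8%, and all genes tested one of 49.5%. The part of this gap in the low median of the mitotic genes in control replicate 1 was not tested. Cenpm and Incenp, both rich in GC, were higher in control replicate 1, while Smc2 and Smc4, both poor in GC, were lower. Troap and Kifc1, which had the highest GC content of the 50 genes (57.9% and 57.0%), were also lower there, by differences of -1.45 and -1.99. With an offset for GC content and transcript length, added after the data had been seen, 35 of the 50 genes were called higher, against 2.32% of all genes tested, and without control replicate 1 as well, 46 were, against 12.3%. The split of all calls went from 102 higher and 17 lower to 319 higher and 310 lower, and the median of all genes moved by -0.11. The part of base composition in the difference between the groups was not tested beyond this offset.

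**Figure D4:**
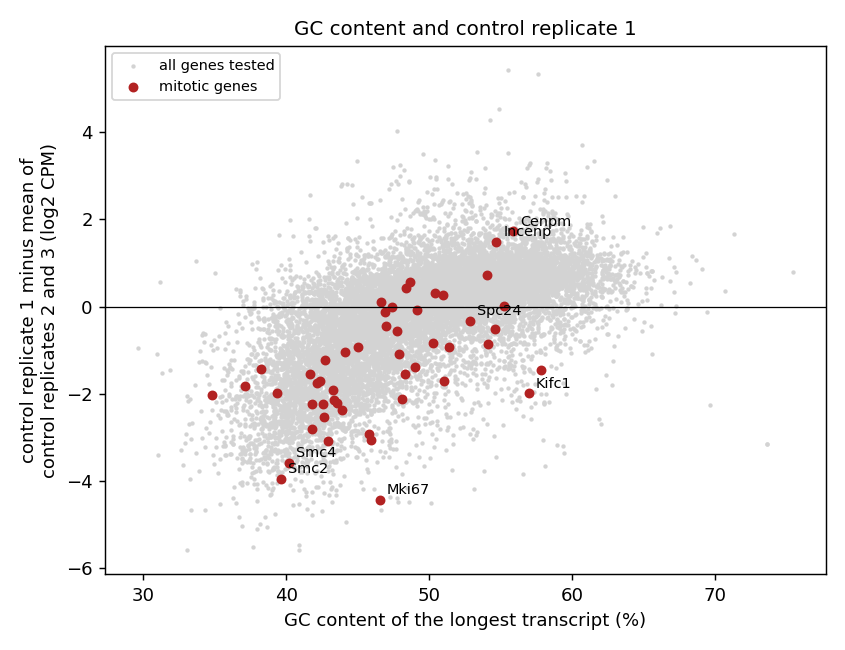
Difference in log2 CPM between control replicate 1 and the mean of control replicates 2 and 3, against the GC content (%) of the longest transcript. Grey points are all genes tested and red points the 50 mitotic genes. Mitotic genes lie below 0 in 40 of 50 cases, and the difference rises with GC content in both sets.

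Other genes of the same pathways were examined in 4 further lists. The 28 other spindle genes had 6 called higher and none lower, against 0.741% and 0.123% of all genes tested. Their median log2 fold change was 1.15. Without control replicate 1, 17 of the 28 were called higher and 1 lower, against 16.5% and 16.1% of all genes tested. Plk1, the polo-like kinase of mitotic entry, was at 0.232, 0.0573 and 0.812 CPM in the controls and at 8.41, 6.72 and 9.72 CPM in the knockdown libraries (log2 fold change 4.50, SE 0.74, adjusted p = 0.0484). Aurkb, the kinase of the chromosomal passenger complex, was at 0.265, 0.229 and 0.0325 CPM in the controls and at 3.56, 1.91 and 3.19 CPM in the knockdown libraries (log2 fold change 4.01, SE 0.64, adjusted p = 0.0428). For both, every knockdown library was above every control, so Aurkb rose as its partner Birc5 did. The central spindle genes Kif23 and Racgap1 had log2 fold changes of 4.59 and 4.44 (adjusted p = 0.0428 and 0.0316), and the microtubule-associated genes Psrc1 and Gtse1 had 3.54 and 2.24 (adjusted p = 0.0300 and 0.0389). In the same list, the plot of fold changes shows a cluster near 0.

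The 25 other kinetochore and centromere genes had 0 called by the edgeR test and a median log2 fold change of 1.37. At an unadjusted p under 0.05, 14 were higher and 1 was lower, against 9.14% and 5.40% of all genes tested. The smallest p belonged to Kntc1, a subunit of the RZZ complex (log2 fold change 3.11, SE 0.63, adjusted p = 0.0822), and Nsl1, of the MIS12 complex (2.06, SE 0.44, adjusted p = 0.0898). Without control replicate 1, 12 of the 25 were called higher and 4 lower, against 16.5% and 16.1% of all genes tested.

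The 17 condensin II and cohesin genes had 0 called and a median log2 fold change of -0.14. The 2 with the smallest p were Esco2, the acetyltransferase of S-phase cohesion (log2 fold change 3.10, SE 0.53), and Cdca5 (sororin), which protects cohesin (2.51, SE 0.43), both with an adjusted p of 0.0519. At an unadjusted p under 0.05, 4 of the 17 were higher and none lower, against 9.14% and 5.40% of all genes tested. Without control replicate 1, 5 of the 17 were called higher and 10 lower, against 16.5% and 16.1% of all genes tested. Of 27 further kinesins, listed as transport and other motors, 21 passed the filter on low counts, 0 were called, and the median log2 fold change was -0.08. Kif5c (log2 fold change 3.06, adjusted p = 0.123) and Kif26b (-1.50, adjusted p = 0.204) had the smallest p among them. At an unadjusted p under 0.05, 1 of the 21 was higher and 4 were lower, against 9.14% and 5.40% of all genes tested. In the fit without control replicate 1, 2 of the 21 were called higher and 6 lower, against 16.5% and 16.1%. The medians of the kinesins among the members and of these further kinesins, 3.93 and -0.08, were not compared by a test. The further list holds Kif2a, of the same family as Kif2c, so its figure label, non-mitotic, does not hold for every gene.

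**Figure D5:**
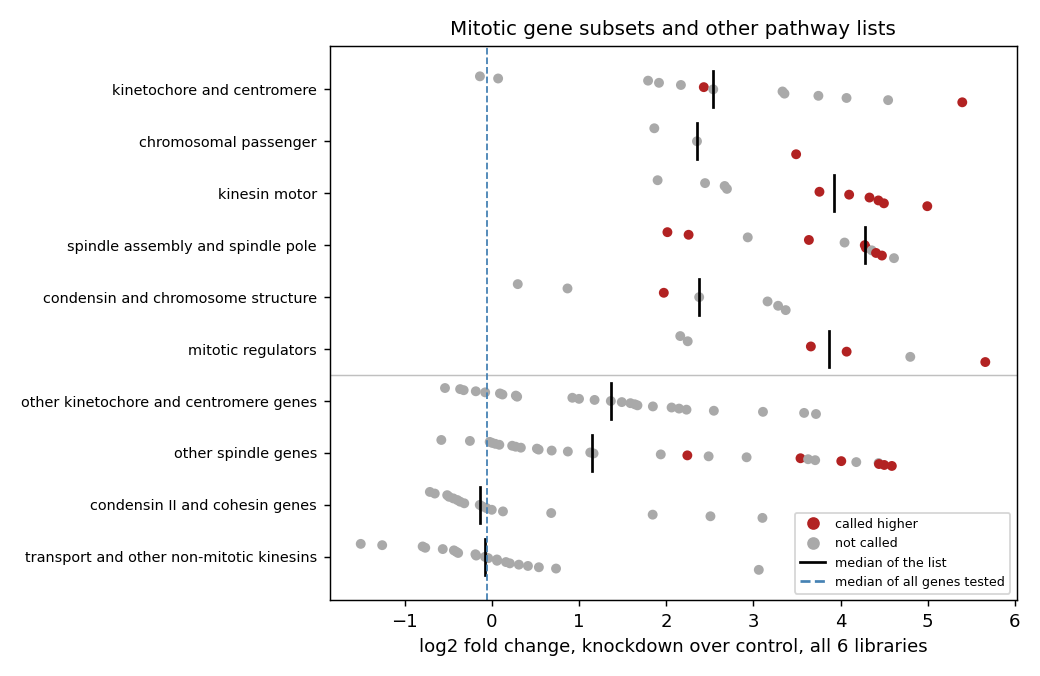
Log2 fold change, knockdown over control, of each tested gene in the 6 roles of the 50 mitotic genes (above the line) and in 4 other pathway lists (below it). Red points were called higher, grey points were not called, black bars are list medians and the dashed line is the median of all genes tested. The medians of the 6 roles lie between 2.35 and 4.28, and those of the other lists between -0.14 and 1.37.

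Markers of the labelled cell type were abundant in every library, and those of other liver cells were present as well. The 8 hepatocyte markers summed to 94535 to 130458 CPM in the controls and to 94813 to 108249 CPM in the knockdown libraries, with 0 of 8 called. The 8 cholangiocyte markers summed to 58.5 to 65.0 CPM in the controls and to 354 to 580.2 CPM in the knockdown libraries. Most of that sum was Spp1 (osteopontin), the 1 called gene of that list, while Krt19, a defining bile duct keratin, did not exceed 0.166 CPM in any library and was at 0 in control replicate 2. The 9 stellate cell and fibroblast markers summed to 206 to 219 CPM in the controls and to 324 to 455 CPM in the knockdown libraries, with Acta2 called higher (adjusted p = 0.0282), and 6 of the 9 were called higher without control replicate 1. The 10 macrophage markers summed to 284 to 584 CPM in the controls and to 503 to 606 CPM in the knockdown libraries, with 0 called, and 8 were called higher without control replicate 1. The fit without that library called 16.5% of all genes tested higher. Endothelial markers summed to 131 to 155 CPM and 122 to 171 CPM, lymphocyte markers to at most 0.706 CPM and neutrophil markers to at most 0.897 CPM, with Ly6g at 0. Erythroid markers summed to 17.2 to 32.4 CPM. The part of these cell types in the mitotic gene values was not tested.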

How the data were processed

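Total RNA from 6 liver samples was made into Illumina libraries and sequenced, per the labels' protocols. The authors deposited raw read counts per gene for each library and a table of FPKM values, which scale counts by transcript length and library size. FastQC, Trim Galore, HISAT2 (listed as 2.10), HTSeq, Cufflinks 2.2.1 and the build GRCm38 (mm10) are named, with no role or order, per the submitters' processing notes. Of 47729 genes in the count files, 47719 were in the FPKM table and 47224 in GENCODE M21, which gave coordinates, GC content and lengths. Lines that name no gene were left out of library sizes. Of the reads, 2.48% to 5.66% were outside genes and 4.69% to 6.87% ambiguous, and mitochondrial genes held 2.43% of reads in control replicate 1 and 3.48% to 6.94% in the others. No libraries had identical counts.

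Counts were filtered with filterByExpr, which keeps a gene with enough reads in any 3 libraries. All 50 members passed, and those near 0 in the controls passed through the knockdown libraries. TMM scaling (factors 0.852 to 1.13) and the edgeR quasi-likelihood test on group alone followed (edgeR 4.0.16 in its earlier form without bias adjustment, R 4.3.3). P-values were adjusted by Benjamini-Hochberg over 13767 genes, with a threshold of 0.05. CPM use TMM-scaled library sizes. The SE is the fold change divided by the root of the F statistic. Alternatives used limma 3.58.1 and DESeq2 1.42.0. On simulated data for this comparison (13476 genes), genes changed 2-, 4-, 8- and 16-fold were recovered at rates of 0%, 54%, 90% and 98%, with 6 false calls. The simulated counts were drawn for each gene independently, from its mean over all libraries, with no library set apart as control replicate 1 was. The rates therefore need not hold for the real libraries or for members near 0 in the controls.

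The members and lists were chosen with earlier results of these data known. Values in every library are given for the 20 called members and for the member with the smallest p in each role, and for others where they show a contrast within a complex. From each other list, the called genes and the 2 with the smallest p are named. Further members and marker genes named with values were chosen after their values were seen.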

Additional observations from a re-analysis of the deposited data

How the results depend on the processing

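Of the 818 values of single members under the alternatives, 570 kept their direction and side of the threshold, 133 gained a call, 104 lost one and 11 changed direction, and 47 of the 50 members had a positive fold change in every fit that tested them. The 20 higher members became 42 with DESeq2 (3.73% of all genes), 45 with limma-voom with quality weights (18.7%), 10 with the replicate number as a block (0.24%) and 35 with the GC and length offset (2.32%). With each library left out in turn they ranged from 0 to 44, and without control replicate 1 and with the offset they were 46 (12.3%). All genes higher (102) became 213 with no filter, 590 with DESeq2, 2576 with voom, 33 with the block, 178 with bias-adjusted edgeR and 319 with the offset, and ranged from 0 to 2348 with a library left out (1747 without control replicate 1 and with the offset). Genes lower (17) became 34, 221, 2512, 2, 31 and 310 in these settings and 27 with limma on log2(FPKM + 1), and ranged from 0 to 2284 (2908). Beside the 0 counts, 1006, 868 and 917 genes were higher and 627, 262 and 307 lower at an unadjusted p under 0.05 in the edgeR test without control replicate 2, knockdown replicate 1 and knockdown replicate 3.

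By role, kinetochore calls (2) became 4 with no filter, 11 with DESeq2 and with voom, 1 with the block, 5 with bias-adjusted edgeR and 8 with the offset, and ranged from 0 to 11 with a library left out (11 without control replicate 1 and with the offset). Passenger calls (1) became 3 with DESeq2 and with voom and 2 with the offset (0 to 3, and 3). Kinesin calls (6) became 10 with voom and 3 with the block (0 to 9, and 10). Spindle calls (7) became 11 with voom and 3 with the block (0 to 11, and 11). Condensin calls (1) became 3 with no filter, 2 with a filter of 1 CPM in 3 libraries, 4 with DESeq2, 5 with voom, 2 with log2(FPKM + 1), 0 with log2(FPKM + 0.1), 0 with the block, 2 with bias-adjusted edgeR and 4 with the offset (0 to 5, and 6). Regulator calls (3) became 5 with DESeq2 and with voom (0 to 5, and 5).

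The reversed values, none of them called, were Spc24 at -0.013 without control replicate 1, -0.0073 with the offset and -0.23 with both, Cenpk at 0.08, 0.17 and 0.32 without control replicate 2, control replicate 3 and knockdown replicate 2, 0.15 with the offset and 0.14 with the offset and without control replicate 1, and Smc4 at -0.31 with voom, -0.21 without control replicate 1 and -0.05 without knockdown replicate 3. With each library left out, Spc24 ranged from -0.013 to 0.20, Cenpk from -0.53 to 0.32 and Smc4 from -0.21 to 0.71. The cause of these changes was not tested. Deviations from the group means correlated at 0.253, -0.0820 and 0.290 between same-numbered libraries. Control replicates 1 and 3 each correlated best with the knockdown library of the same number, and control replicate 2 with knockdown replicate 3 (0.270). Deviations within such small groups depend on one another, so these values do not settle whether same-numbered libraries were paired. All 10 members called with the replicate block were among the 20. The offset and the bias-adjusted edgeR test were chosen after seeing the data. Depth limits the members near 3 reads in the controls, for which the size of the fold change rests on few reads.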
